A study of Mus musculus with 8 samples.

Results

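Transcripts of lysosomal enzymes and of the pump that acidifies the lysosome were followed in immune cells of diabetic and control skin wounds. The set was chosen by gene symbol. It holds 31 listed genes and every gene whose symbol starts with Atp6v except Atp6v0d2, a marker of osteoclasts, which gave 52 of the 21742 genes named in any library. By role these are 11 cathepsins and legumain, 8 hydrolases and their activators, 9 membrane and cholesterol export proteins, the transcription factors Tfeb and Tfe3, and 22 subunits of the proton pump, the last counting Tcirg1. Of the 52 genes, 46 had a row in all 8 libraries and 45 had over 1000 UMIs (counted RNA molecules) in the cells kept. The 6 genes Atp6v1g3, Atp6v0e2, Atp6v1c2, Atp6v1e2, Atp6v1b1 and Atp6v0a4 had fewer than 100 UMIs each and are not described further.

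Lysosomes degrade what a cell has engulfed, together with its own worn components, and their enzymes work at an acid pH. The vacuolar ATPase is a rotary pump that uses ATP in its soluble V1 sector to drive protons through its membrane V0 sector, and cathepsins are proteases that act in the space acidified by it. Macrophages clear dead cells and debris from wounds through this route, dendritic cells use it to cut proteins for presentation to T cells, and osteoclasts place the same pump in the plasma membrane to dissolve bone mineral. Tfeb and Tfe3 are transcription factors that bind an E-box sequence found in many lysosomal promoters.

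The samples were cells positive for CD45, the common leukocyte antigen, from skin wounds of male C57BL/6J mice. The diabetic group (STZ-induced diabetic wound) had received streptozotocin, a toxin of pancreatic beta cells, at 120 mg/kg when 4 weeks old, and the control wound group was not diabetic. Each group gave 1 library on each of days 1, 3, 5 and 7 after wounding, made from a pool of 5 mice, so the 8 libraries hold no replicate of a group on a single day. In the libraries, 70.5% to 86.1% of the cells had a UMI of Ptprc, the gene of CD45.

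The tables held 19236522 to 33842509 UMIs a library, and 3273 to 5440 cells a library were kept, 35215 in all. The control day 5 library stood apart: 28.5% of its barcodes were removed, 27.1% for mitochondrial UMIs, against 1.0% to 10.6% removed in the other 7, and its cells had a median of 8219 UMIs against 2573 to 5219. Cells were grouped into 19 clusters without the 52 genes, and clusters were named from markers, so a class such as macrophage-like rests on none of the genes described. Cells carry serial names in the tables, and cell barcodes shared between libraries were not counted. Levels below are in CPM, the UMIs of a gene or of a group of genes scaled to a common total of all UMIs in the same cells. UMIs count molecules and were not divided by gene length.

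Promoters of 4 of the genes are printed to show the E-box where it is present and where it is not, for enzymes and pump subunits whose levels are followed over days below. Each runs from 250 bases before to 50 bases after the start of transcription, from RefSeq on GRCm38.p6, and the bases TCACGTGA are in capitals. The Ctsa promoter lies at chr2:164833523-164833822 on the plus strand and that of Ctss at chr3:95526536-95526835 on the plus strand. The Atp6v0d1 promoter lies at chr8:105566015-105566314 and that of Atp6v1e1 at chr6:120822649-120822948, both on the minus strand.
Ctsa: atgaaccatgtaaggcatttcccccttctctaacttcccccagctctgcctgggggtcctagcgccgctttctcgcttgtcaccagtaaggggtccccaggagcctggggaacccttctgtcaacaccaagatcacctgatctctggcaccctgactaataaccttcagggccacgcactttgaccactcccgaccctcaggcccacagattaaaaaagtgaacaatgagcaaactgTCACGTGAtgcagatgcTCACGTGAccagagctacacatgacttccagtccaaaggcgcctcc
Ctss: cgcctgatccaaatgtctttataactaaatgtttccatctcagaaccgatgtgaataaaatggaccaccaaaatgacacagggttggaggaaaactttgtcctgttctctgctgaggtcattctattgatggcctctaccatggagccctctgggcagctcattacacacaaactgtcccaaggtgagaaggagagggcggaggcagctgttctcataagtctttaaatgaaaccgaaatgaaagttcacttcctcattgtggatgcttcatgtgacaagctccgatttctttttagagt
Atp6v0d1: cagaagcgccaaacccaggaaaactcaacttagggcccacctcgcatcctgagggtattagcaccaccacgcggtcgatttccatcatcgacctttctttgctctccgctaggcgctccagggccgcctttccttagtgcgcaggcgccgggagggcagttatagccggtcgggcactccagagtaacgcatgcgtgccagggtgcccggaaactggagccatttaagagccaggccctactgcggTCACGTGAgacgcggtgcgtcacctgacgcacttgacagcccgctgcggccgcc
Atp6v1e1: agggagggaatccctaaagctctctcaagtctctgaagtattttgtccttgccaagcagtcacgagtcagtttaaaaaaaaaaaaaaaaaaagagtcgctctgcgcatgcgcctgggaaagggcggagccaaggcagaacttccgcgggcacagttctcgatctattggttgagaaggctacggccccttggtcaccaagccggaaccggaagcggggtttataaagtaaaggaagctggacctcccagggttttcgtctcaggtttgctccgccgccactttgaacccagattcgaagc

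The Ctsa window held the 8 bases at 2 places, the Atp6v0d1 window once, and the windows of Ctss and Atp6v1e1 not at all. Of the 52 genes, 43 matched an entry in the promoter table. The core CACGTG was present on either strand in 13 of the 43 (30.2%), against 8.09% of the 27025 genes in the table. TCACGTG, which contains the core, was present in 11 (25.6%) against 4.29%, and TCACGTGA in 6 (14.0%) against 1.12%. These 6 were Ctsa, Ctsd, the calcium channel gene Mcoln1, and the pump genes Atp6v0d1, Atp6v0e and Atp6v1a. A match describes the letters in this window and is no measure of binding.

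The 52 genes made up 5382621 of 187931550 UMIs in the cells kept, or 2.86%. Cathepsins and legumain took 44.0% of these, membrane proteins 22.3%, hydrolases and activators 19.2%, pump subunits 14.3% (of 22 genes) and the transcription factors 0.276%. Single genes differed widely. Ctsb, a cysteine cathepsin, gave 17.3% of the UMIs of the set, Ctss, the cathepsin that trims the invariant chain of MHC class II, 12.8%, and Psap, the precursor of the saposins, 10.6%. With Laptm5, Grn, Cd68, Npc2 and Cd63, these 8 genes made up 62.8%.

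As a share of their UMIs, macrophage-like cells held the most of these transcripts. CPM is no amount per cell, since depth differed between the classes. In diabetic day 3 the median cell had 23640 UMIs in osteoclast-like, 6621 in macrophage-like and 2309.5 in neutrophil-like cells. The summed level of the 52 genes had a median of 43570.1 CPM (range 28621 to 51788, 8 libraries) in macrophage-like cells and 31376 (26408 to 39922) in monocyte-like cells. It was 28892 (23059 to 32494) in osteoclast-like cells of 4 libraries, 17547 (14651 to 21936) in dendritic-like cells and 16143 (10223 to 31162) in neutrophil-like cells. T cell-like cells had 11603 (8275 to 21361), mast cell-like cells 9608 (9592 to 14827, 4 libraries) and NK cell-like cells 8083 (6232 to 13756, 6 libraries). Within a library, macrophage-like cells were above monocyte-like, dendritic-like, neutrophil-like and T cell-like cells in all 8. The ranges of dendritic-like, neutrophil-like and T cell-like cells overlapped. A cluster of 4062 shallow cells led by Gm26917 and Malat1 stayed unnamed and had a median of 29767.

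**Figure D1:**
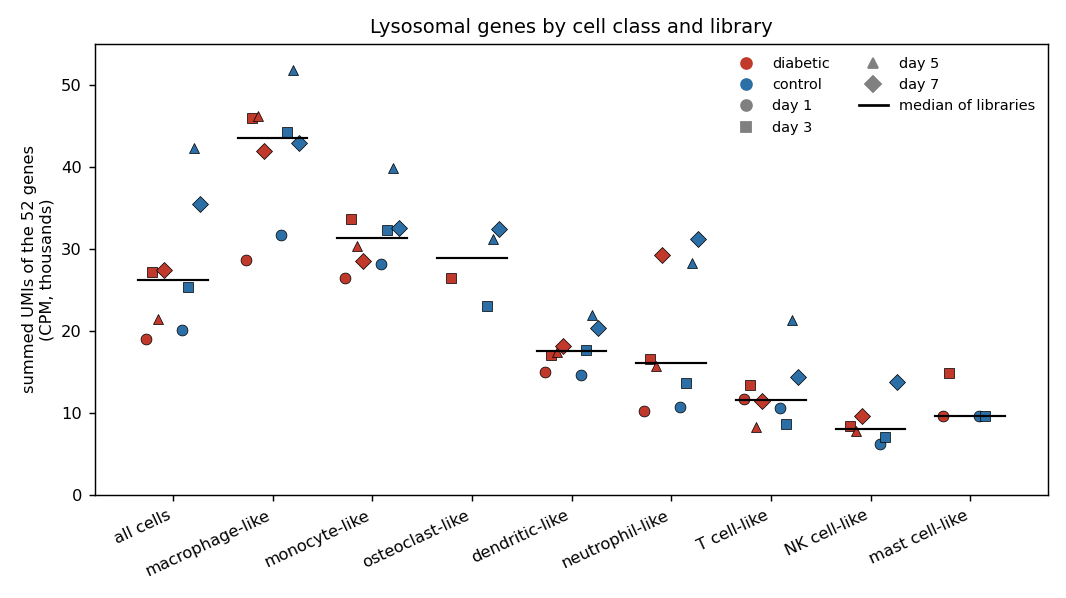
Summed UMIs of the 52 lysosomal genes in CPM (vertical axis, in units of 1000) in all cells and in each cell class (horizontal axis), with 1 point a library, colour for the group, shape for the day and a bar at the median. Macrophage-like cells lie at 28621 to 51788 CPM, and the day 1 libraries are the lowest of that class.

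Among macrophage-like cells the clusters differed. The cluster led by Gpnmb, Ms4a7 and Selenop had a median sum of 48666 CPM (31117 to 53937), and the clusters led by Igf1, Gdf15 and Apoe and by Retnla and Lyve1 had 38998 (6 libraries) and 37383. Among dendritic-like cells, the cluster led by Fscn1, Ccl22 and Ccr7, genes of dendritic cells that migrate to lymph nodes, had 13910 against 18594 in the other. The 5 neutrophil-like clusters had medians of 12368 to 21081.

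By role, cathepsins and hydrolases separated the classes more than the pump did. The cathepsin sum had a median of 21413 CPM in macrophage-like, 13823 in monocyte-like, 6509 in dendritic-like, 5723 in neutrophil-like and 3981 in T cell-like cells. The hydrolases and activators had medians of 8986, 5862, 3353, 2083 and 1721 CPM in the same order. The pump subunits spread less, with medians of 4693, 4226, 2712, 3629 and 1993 CPM. The summed level of Tfeb and Tfe3 was 80.1 CPM in macrophage-like and 94.1 in neutrophil-like cells (ranges 56.9 to 118 and 76.2 to 114), which overlapped.

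Of the 45 genes with over 1000 UMIs, 35 had their highest median in macrophage-like cells when these were set beside monocyte-like, neutrophil-like, dendritic-like and T cell-like cells. Ctsb had 8733 CPM there against 4527, 2733, 1234 and 1508 in those 4 classes, and Grn, the precursor of the granulins, 2562 against 1642, 559.9, 702 and 451. Cd68, a glycoprotein of the lysosomal membrane used to stain macrophages, had 1927 against 1337, 812, 518 and 448. The genes highest in another class were Lamp2, Tfe3, Atp6v0c, Atp6v0d1 and Atp6v1e1, highest in neutrophil-like cells, Npc2 and Atp6v0e in monocyte-like, Laptm5 and Atp6v0a2 in T cell-like and Ctsh in dendritic-like cells. Laptm5, a lysosomal protein of blood cells, was nearly level across the classes at 1735 CPM in macrophage-like, 1559 in monocyte-like, 1263 in neutrophil-like, 1871 in dendritic-like and 1883 in T cell-like cells. Cd63, a tetraspanin of lysosomes and secretory granules, had 2053 CPM in mast cell-like against 1355 in macrophage-like cells. T cells do not make C1qa, C1qb, C1qc, Apoe and Pf4 at the level of macrophages, yet these 5 genes summed to 0 to 4466 CPM in the median T cell-like cell of a library, against 11793 to 21291 over macrophage-like cells. Low levels of macrophage transcripts in the other classes can therefore not be told apart from free RNA. Atp6v0c, the subunit of the proton-carrying ring, has near-identical processed copies in the genome, and its low count is uncertain.

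**Figure D2:**
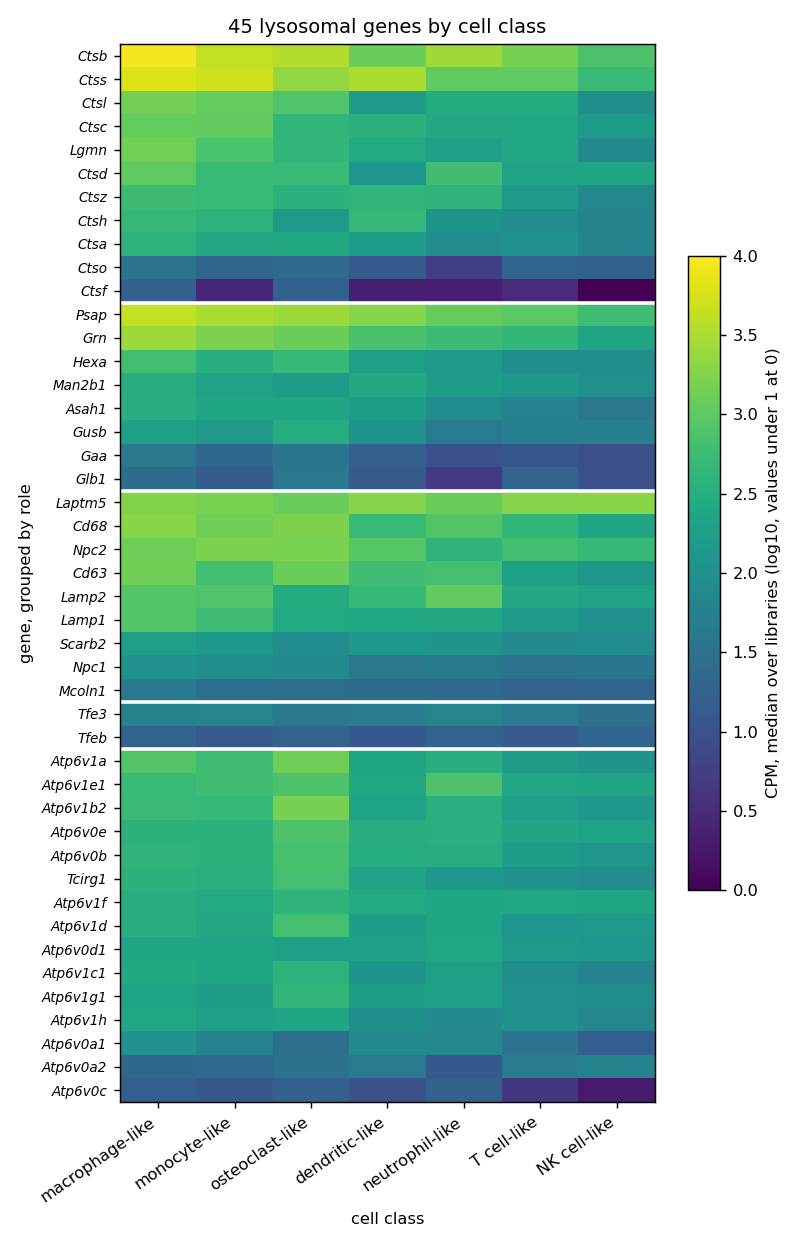
Median level over libraries of the 45 genes with over 1000 UMIs (rows, grouped by role) in 7 cell classes (columns), coloured by log10 of CPM. Of the 7 columns, the macrophage-like one is highest for 9 of 11 cathepsins and legumain (not Ctsf and Ctsh) and 6 of 8 hydrolases and activators (not Gusb and Glb1), and the osteoclast-like one for 9 of 15 pump genes.

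Compared with macrophage-like cells of the same library, 37 of 46 genes with a row in all libraries were lower in neutrophil-like cells in all 8 libraries, where 37.2% of all genes were lower, and 2 were higher, where 10.5% of all genes were. In dendritic-like cells 31 were lower (15.2% of all genes) and 1 higher (17.7%), and in T cell-like cells 35 were lower (14.7%) and 1 higher (24.4%). In monocyte-like cells 17 were lower (11.1%) and 0 higher (5.98%). The higher gene in dendritic-like and T cell-like cells was Atp6v0a2, an isoform of the large membrane subunit of the pump. These counts rest on single libraries of each class and carry no test.

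The 2 genes higher in neutrophil-like cells were Lamp2, a heavily glycosylated protein of the lysosomal membrane, and Atp6v1e1, part of the outer stalk of the pump. Lamp2 was 1.03 to 1.58 times and Atp6v1e1 1.12 to 1.83 times the macrophage-like level in the 8 libraries. In contrast, the level of Lgmn, an asparaginyl endopeptidase that activates cathepsins, was 0.0516 to 0.581 times, and that of Ctss 0.119 to 0.719 times. The upper ends of the last 2 ranges came from late libraries, in which transcripts of macrophages were also abundant in neutrophil-like cells, as given with the trends over days.

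Osteoclast-like cells had a pump-rich pattern. Their summed pump level was 7157 to 8889 CPM in 4 libraries, namely diabetic day 3 and control days 3, 5 and 7. That pump level was above the 4048 to 5321 of macrophage-like cells in all 8. The cathepsin sum of osteoclast-like cells, 6077 to 10858, was below the 12747 to 25809 of macrophage-like cells. Of the 46 genes, 12 were higher than in macrophage-like cells in 4 of 4 libraries, among 38.1% of all genes, and 11 of the 12 were among the 16 pump genes counted. These were Tcirg1, the isoform of the large membrane subunit used by osteoclasts, Atp6v0a2, Atp6v0b and Atp6v0e of the V0 sector, and Atp6v1a, Atp6v1b2, Atp6v1c1, Atp6v1d, Atp6v1e1, Atp6v1f and Atp6v1g1 of the V1 sector. The other was Gusb, beta-glucuronidase.

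Atp6v1b2, a nucleotide-binding subunit of V1, was 2.43 to 2.99 times the macrophage-like level, with a median of 1522 CPM. Atp6v1g1 was 1.75 to 2.31 times, Atp6v0e 1.84 to 2.04 times, Atp6v1d 1.67 to 1.92 times and Tcirg1 1.56 to 1.86 times. The catalytic subunit gene Atp6v1a, at 1337 CPM, was 1.48 to 1.79 times. Atp6v0d1, the ubiquitous form of the d subunit, was 0.661 to 0.844 times and Atp6v0a1, an isoform of the large subunit, 0.173 to 0.641 times, both lower in all 4 libraries. In all, 27 of the 46 genes were lower in osteoclast-like cells in 4 of 4 libraries, where 25.7% of all genes were. Among these were Ctsb (0.224 to 0.478 times), Ctss (0.319 to 0.522 times), Lamp1 (0.263 to 0.370 times) and Lgmn (0.20 to 0.381 times). The osteoclast-like class held 41 to 256 cells in these libraries and is marked by Acp5, Ctsk and Atp6v0d2, none of them in the set. Among diabetic libraries only day 3 had enough cells of the class, with 43.

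Whether diabetes changed these transcripts over the whole time course was asked with day as a block, comparing 4 diabetic with 4 control libraries. With edgeR's quasi-likelihood test and Benjamini-Hochberg adjustment over all genes, 0 of 46 genes passed an adjusted p of 0.05 in all cells, where 0% of all genes were called in either direction. In macrophage-like cells 0 of 46 passed (0.0282% of all genes higher in diabetic, 0.00938% lower), in monocyte-like cells 0 of 45 (0.00958% and 0%), in neutrophil-like cells 0 of 46 (0.00928% and 0.0186%) and in dendritic-like cells 0 of 44 (0% and 0.01%). DESeq2 called 0 genes of the set in each of the 5 fits, where it called 0.623%, 0.584%, 1.65%, 0.724% and 0.199% of all genes in the same order. At an unadjusted p under 0.05 there were 2 genes of the set in all cells (11% of all genes), 1 in macrophage-like (7.38%), 3 in monocyte-like (6.61%), 0 in neutrophil-like (8.67%) and 4 in dendritic-like cells (6.24%).

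The estimates leaned low in all cells. Their median log2 difference, diabetic against control, was -0.22 for the set and 0.00 for all genes, and it was negative for 11 of 11 cathepsins, 8 of 8 hydrolases, 6 of 9 membrane proteins and 13 of 16 pump genes. These signs carry no test. The class makeup differed too: macrophage-like cells held 1.24%, 16.1%, 7.0% and 33.1% of the UMIs in diabetic wounds on days 1, 3, 5 and 7. In control wounds they held 2.05%, 18.8%, 54.5% and 59.1%, and the part of this in the lean was not tested. In macrophage-like cells the median log2 difference of the set was -0.07. The lowest unadjusted p there was that of Ctsd, the aspartic cathepsin, at a log2 difference of -0.39 ± 0.14 (SE), which did not pass the adjusted threshold. Ctsd had 485, 1179, 1030.3 and 682 CPM in diabetic and 763, 1075, 1419 and 1072 in control macrophage-like cells on days 1, 3, 5 and 7. The diabetic library was below the control library on 3 of 4 days, and the ranges overlapped. Psap stood at log2 differences of -0.36 ± 0.13 in monocyte-like and -0.34 ± 0.11 (SE) in dendritic-like cells, again short of the adjusted threshold.

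Psap had 2737, 3027, 3177 and 3228 CPM in diabetic and 2826, 4274, 4691 and 4423 in control monocyte-like cells on the 4 days. In dendritic-like cells it had 1638, 1735, 1645 and 2015 against 1759, 2188, 2455 and 2446. In both classes the diabetic library was below the control library on each day, with close values on day 1. C1qa, C1qb, C1qc, Apoe and Pf4, which mark macrophages, moved in part with it. They summed to 2048, 8703, 5171 and 6576 CPM in diabetic and 3398, 6723, 11073 and 7737 in control monocyte-like cells, and to 175, 1491, 821 and 3070 against 257, 1385, 4063 and 4922 in dendritic-like cells. Their sum was lower in the diabetic library on days 1, 5 and 7 and higher on day 3 in both classes, and their part in the Psap differences was not tested. A threshold missed with 4 libraries a group does not show that the groups were alike.

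Day by day, the summed level of the set in all cells was 19061, 27144, 21422 and 27462 CPM in diabetic and 20068, 25327, 42276 and 35516 in control wounds. The diabetic over control ratio was 0.95 (95% interval 0.946 to 0.954) on day 1, 1.07 (1.07 to 1.08) on day 3, 0.507 (0.505 to 0.508) on day 5 and 0.773 (0.771 to 0.776) on day 7. The intervals are exact and cover counting error only, and with 1 library a group and day there is no test. The gap was thus at days 5 and 7. On those days macrophage-like cells held 7.0% and 33.1% of the UMIs in diabetic and 54.5% and 59.1% in control wounds. With each class held at its mean share in both libraries, the ratios were 0.948, 1.06, 0.794 and 0.944.

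In macrophage-like cells the sum was 28621, 45916, 46210.5 and 41984 CPM in diabetic and 31740, 44257, 51788 and 42883 in control wounds, which gave ratios of 0.902 (0.875 to 0.929), 1.04 (1.03 to 1.04), 0.892 (0.885 to 0.899) and 0.979 (0.975 to 0.983). Both day 1 libraries were the lowest and the control day 5 library the highest. The class held 63 and 81 cells on day 1, and on day 7 it was mostly the cluster led by Igf1, Gdf15 and Apoe (83.7% in diabetic, 91.7% in control), whereas days 3 and 5 were mostly the Gpnmb cluster. On day 3 the cluster led by Retnla and Lyve1 held 35.9% of the class in diabetic and 15.4% in control wounds. Within the Igf1, Gpnmb and Retnla clusters the day 3 ratios were 0.894, 1.10 and 0.981. Monocyte-like cells had ratios of 0.936, 1.04, 0.762 and 0.876. Their 2 clusters were mixed differently: on day 3 cluster 4, whose leading genes include Ppbp, held 66.5% of the class in diabetic and 37.8% in control wounds, and within clusters 4 and 8 the day 3 ratios were 0.964 and 1.00. In cluster 4 the ratios on days 1, 5 and 7 were 0.971, 0.71 and 0.837, and on days 5 and 7 cluster 8 had too few control cells to compare. Dendritic-like cells had ratios of 1.02, 0.962, 0.792 and 0.896, and neutrophil-like cells 0.95, 1.21, 0.554 and 0.938. On day 5 the ratio was below 1 in each of these classes, against the same control library that stood apart in depth and mitochondrial UMIs. What the quality of that library added was not tested.

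**Figure D3:**
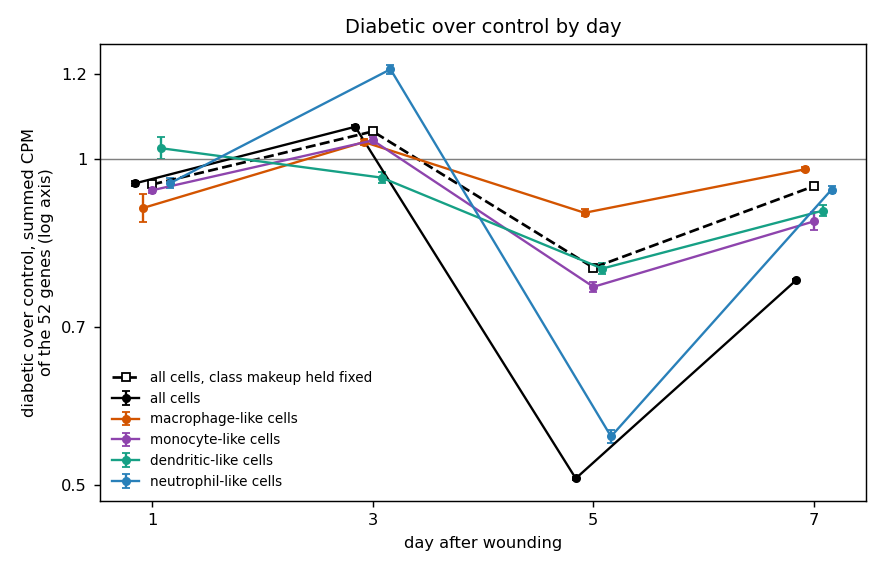
Ratio of the summed level of the 52 genes, diabetic over control (vertical log axis), on days 1, 3, 5 and 7 in all cells and in 4 classes, with exact 95% intervals of counting error, and for all cells with the class makeup held fixed (open squares). All cells are at 0.507 on day 5, while macrophage-like cells lie between 0.892 and 1.04.

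On single days few genes of the set differed by 2-fold in macrophage-like cells. Among genes with at least 100 UMIs in both libraries together, 32 of the set were compared on day 1 and 45 on each later day. The counts at least 2-fold lower in the diabetic library were 0, 1, 0 and 0 on days 1, 3, 5 and 7, where 3%, 0.919%, 4.25% and 1.19% of all genes were. The counts at least 2-fold higher were 0, 1, 0 and 0, where 3.69%, 1.9%, 1.95% and 1.28% of all genes were. The gene lower on day 3 was Tfeb, with 11.7 CPM in diabetic and 27.8 in control cells (ratio 0.422, 0.292 to 0.601), and the higher was Ctsf, with 20.4 and 8.66 CPM (ratio 2.36, 1.55 to 3.65). Both rest on 33 to 106 UMIs a library, and neither passed 2-fold in the same direction on another day.

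The 8 genes with the most UMIs are given for every library in macrophage-like cells, with diabetic before control and days 1, 3, 5 and 7 in order. Ctsb had 5740.3, 10168, 9084 and 8695 CPM in diabetic and 6855, 8566, 11214 and 8771 in control wounds. Ctss had 2638, 6196, 7226 and 6559 in diabetic and 2327, 6219, 6623 and 5626 in control wounds. Both cathepsins were lowest on day 1 in each group, and the groups overlapped. Psap had 2473, 4272, 4839 and 4498 against 2598, 4553, 6111.5 and 5429, lower in the diabetic library on each day. Grn had 1519.5, 3119, 2697 and 2303 against 1822, 2861, 2712 and 2426, and was also lowest on day 1. Cd68 had 1836, 1968, 1849 and 1693 against 2153, 2041, 2245 and 1886, lower in the diabetic library on each day, and it differed little between days. Cd63 had 1182, 1544, 1516 and 1336 against 908, 1373, 1948 and 1271. Npc2, the soluble cholesterol carrier, had 1165, 1573, 1487 and 1241 against 1038, 1337, 1616 and 1283. Laptm5 had 1211, 1707, 1902 and 1699 against 1452, 2062, 1768 and 1762. For Cd63, Npc2 and Laptm5 neither group was higher throughout.

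In all cells, Ctsb had 2758, 4678, 2840.2 and 4804.5 CPM in diabetic and 3399.6, 3629, 8078 and 6755 in control wounds, and Psap 1739.7, 2345, 2034 and 2914 against 1762, 2665.5, 4806 and 4465. Both were highest in the control libraries of days 5 and 7, the 2 libraries with the largest share of UMIs in macrophage-like cells, and no test of that relation was made. Laptm5, level across the classes, had 1341.5, 1464, 1755 and 1665 against 1219.5, 1909, 1612 and 1689.8, and showed no such gap.

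Whether the genes changed with time was asked by a slope per day with the group as a term. In macrophage-like cells 0 of 46 passed edgeR's quasi-likelihood test with Benjamini-Hochberg adjustment (0.579% of all genes rose and 0.157% fell), with 8 at an unadjusted p under 0.05 (9.67% of all genes) and 1 called by DESeq2 (1.3%). In monocyte-like cells 0 of 45 passed (0.523% and 0.261%), with 1 at an unadjusted p under 0.05 (13%) and 0 by DESeq2 (2.37%). In dendritic-like cells 0 of 44 passed (0.303% and 0.0627%), with 13 at an unadjusted p under 0.05 (11.5%) and 4 by DESeq2 (1.51%). The median slopes of the set, 0.05, 0.02 and 0.06 log2 a day, were above those of all genes, which were 0.00 in each of the 3 classes. A difference in slope between diabetic and control wounds was called by edgeR for 0 of 46 genes in all cells and in macrophage-like cells, where 0% of all genes were called in either direction. At an unadjusted p under 0.05 there were 0 in both (1.73% and 2.43% of all genes), and DESeq2 called 0 in both (0.0277% and 0.0105%). In all cells the estimates were mostly lower in diabetic wounds, with a median difference in slope of -0.09 log2 a day for the set and 0.00 for all genes. The difference was negative for 11 of 11 cathepsins, 8 of 8 hydrolases, 8 of 9 membrane proteins and 14 of 16 pump genes. These signs carry no test, and the part of the class makeup given above in them was not tested. In macrophage-like cells the medians were -0.01 and 0.00.

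In all cells, 3 of 46 genes fell and 0 rose, where 6.89% and 3.45% of all genes did. The calls did not hold without the libraries of day 1 or of day 7, when 0 genes of the set were called (0% and 0.00753% of all genes), and DESeq2 called 8 (17.3%). Atp6v1e1 had 669, 595, 531 and 409.7 CPM in diabetic and 728, 474, 593 and 456 in control wounds on days 1, 3, 5 and 7, a slope of -0.18 ± 0.04 log2 a day (SE; edgeR's quasi-likelihood test, Benjamini-Hochberg adjusted p = 0.0311). Tfe3 had 73.6, 66.2, 55.4 and 55.9 against 76.6, 62.2, 55.9 and 57.8, with a slope of -0.15 ± 0.03. Lamp2 had 867, 919, 696 and 642 against 899, 763, 711 and 746, with a slope of -0.14 ± 0.03. In each of the 3, day 1 stood above day 7 in both groups. All 3 had their highest level in neutrophil-like cells, of which the libraries held 2448 and 2649 on day 1 and 766 and 1066 on day 7. The part of these cell numbers in the falls was not tested, and with TMM all 3 were also called lower within neutrophil-like cells. Scaled by total UMIs in place of TMM, a scaling chosen after the data were seen, none of the 3 was called, their slopes were -0.10, -0.07 and -0.06, and 9 other genes of the set rose, with 14.2% of all genes rising and 3.62% falling.

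Neutrophil-like cells showed the widest movement. Of 46 genes 17 rose and 5 fell (edgeR's quasi-likelihood test, Benjamini-Hochberg adjusted p under 0.05), where 21.8% of all genes rose and 20.3% fell. The 17 were 7 of 11 cathepsins and legumain (Ctsa, Ctsb, Ctsh, Ctsl, Ctso, Ctss and Lgmn), 7 of 8 hydrolases and activators (Asah1, Gaa, Glb1, Grn, Gusb, Hexa and Psap, all but Man2b1), Lamp1, Npc2 and Tcirg1. The 5 that fell were Tfe3, Lamp2, Atp6v1e1, Atp6v0c and Atp6v0d1. Ctsc, Ctsd, Ctsf, Ctsz and Man2b1 did not pass, and of 16 pump genes 1 rose and 3 fell, a share of falls near that of all genes.

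The fall of those 5 genes is relative to the TMM scaling. Scaled by total UMIs, the median slope of all genes moved up by 0.16 log2 a day, 33 of the 46 genes rose and 0 fell, against 47.9% and 4.88% of all genes, and the 17 genes called with TMM were all among the 33. Under that scaling the slopes were -0.10 for Tfe3, -0.09 for Atp6v1e1, -0.05 for Lamp2, -0.03 for Atp6v0c and 0.04 for Atp6v0d1, none called. With DESeq2's RLE factors in edgeR, 16 genes rose and 5 fell, where 20.6% and 21.9% of all genes did.

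Values per library show both kinds of movement. Ctss in neutrophil-like cells had 314, 1205, 924 and 4504 CPM in diabetic and 305, 833, 3741 and 4043 in control wounds on days 1, 3, 5 and 7, a slope of 0.46 ± 0.07 log2 a day (SE; edgeR's quasi-likelihood test, Benjamini-Hochberg adjusted p = 0.000552). Lgmn had 63.9, 233, 156 and 765 against 72.8, 145, 679 and 733, with a slope of 0.41 ± 0.07. For both the control level was high by day 5 and the diabetic level by day 7. Gusb had 13.6, 49.3, 42.3 and 115 against 12.1, 41.5, 131 and 139, with a slope of 0.36 ± 0.06. Ctso, a lysosomal cysteine protease, had 2.59, 5.44, 5.59 and 18.2 against 2.13, 5.50, 19.6 and 20.1, with a slope of 0.34 ± 0.06. Glb1, beta-galactosidase, had 1.01, 4.73, 2.63 and 17.9 against 1.06, 4.44, 10.3 and 21.7, with a slope of 0.48 ± 0.08, from 7 to 108 UMIs a library. In all 5 genes the day 7 libraries and the control day 5 library stood above the other 5 libraries.

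Tfe3 had 88.8, 99.7, 57.2 and 60.5 CPM in diabetic and 80.6, 70.5, 65.9 and 59.1 in control neutrophil-like cells, a slope of -0.26 ± 0.04 log2 a day (SE; edgeR's quasi-likelihood test, Benjamini-Hochberg adjusted p = 0.000524). Atp6v1e1 had 879, 846, 854 and 691 against 981, 613, 639 and 552, with a slope of -0.25 ± 0.05. Both were lower on day 7 than on day 1 in each group. Lamp2 had 1093, 1273, 1062 and 903 against 1118, 1201, 929.9 and 972, with a slope of -0.21 ± 0.05. Atp6v0c had 18.2, 14.5, 23.8 and 14.3 against 21.6, 16.1, 17.5 and 17.1, with a slope of -0.19 ± 0.06. Atp6v0d1 had 209, 266, 232 and 219 against 181, 256, 283 and 266, with a slope of -0.11 ± 0.04. For Atp6v0d1 the level in CPM was higher on day 7 than on day 1 in each group, opposite in sign to its slope.

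Of the genes that rose and have a promoter entry, TCACGTG was present in 5 of 14, and of those that fell in 1 of 5, against 11 of 43 (25.6%) in the set and 4.29% of all genes. In the promoters printed above, Ctsa rose and holds the 8 bases, Ctss rose and does not, Atp6v0d1 is called lower with TMM and holds them, and Atp6v1e1 is called lower and does not.

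**Figure D4:**
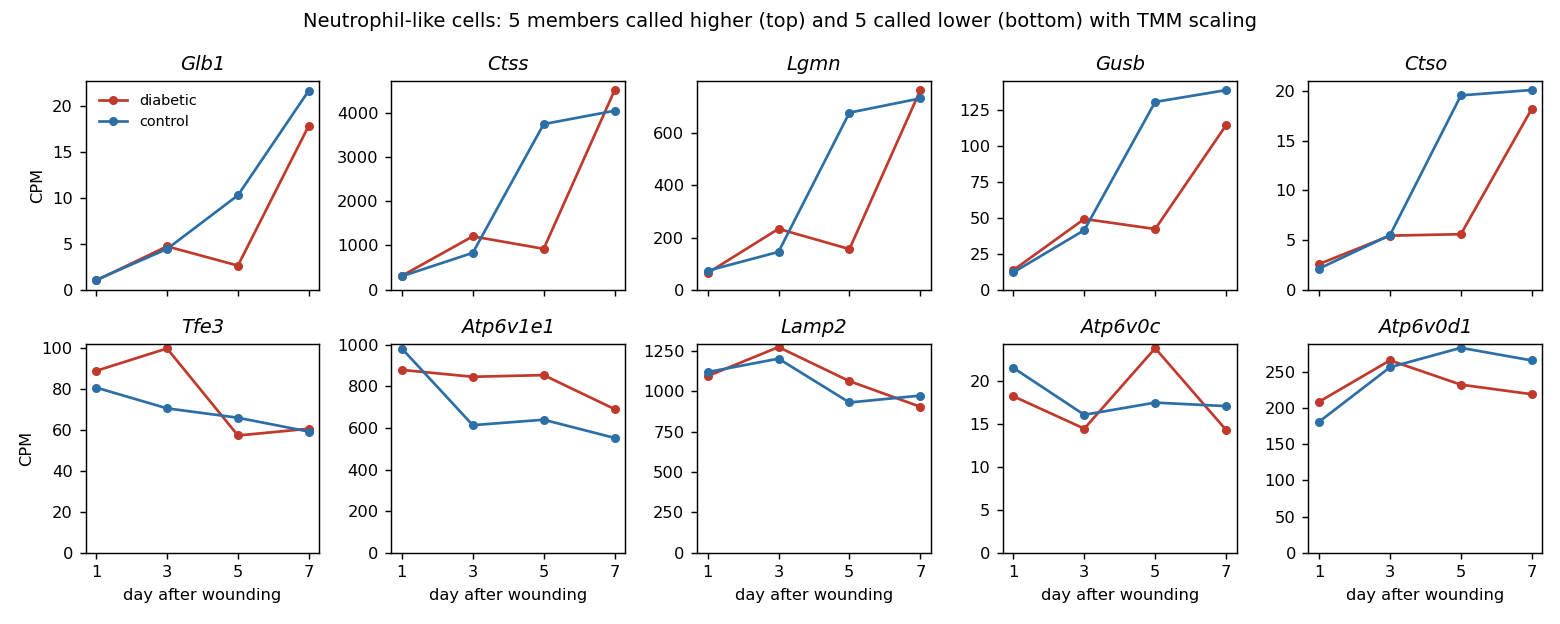
Level in CPM (vertical axes, from 0) by day after wounding in neutrophil-like cells of diabetic (red) and control (blue) wounds, 1 point a library, for 5 genes called higher over days (top) and 5 called lower with TMM scaling (bottom). Ctss goes from 314 to 4504 in diabetic and from 305 to 4043 in control wounds, while Atp6v0d1 does not decline in CPM.

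RNA of macrophages moved with these slopes. C1qa, C1qb, C1qc, Apoe and Pf4, which mark macrophages, summed to 294, 2526, 1801 and 8158 CPM in diabetic and 512, 1711, 7060.0 and 9336 in control neutrophil-like cells. All 5 are markers of the macrophage-like class and none is in the set. In the median cell of each library the sum was 0, 1392, 572 and 2761 in diabetic and 167, 840.3, 2838 and 4660 in control wounds. It was nearly the same in T cell-like cells, at 127, 1341, 514 and 2541 in diabetic and 0, 769, 2837 and 4466 in control wounds, and in dendritic-like cells, at 122, 1285, 568 and 2575 in diabetic and 189, 807, 2632 and 4261 in control wounds. Within a library the 3 classes thus carried like amounts, and between libraries the amount was highest in the same 3 libraries as the 5 genes named above.

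A few deep cells held much of the rest. Cells with over 2 times the median UMIs of the class in their library were 141 of 1066 neutrophil-like cells in control day 7 and held 57.3% of their UMIs. They were 78 of 766 in diabetic day 7 with 48.4%, and 27 of 262 in control day 5 with 44.3%, against 8.53% to 17.0% of the UMIs in the other 5 libraries. No doublet caller was run. Without these cells 8 genes of the set were called over days by edgeR, namely Ctsa, Ctss, Hexa, Lgmn and Psap higher and Tfe3, Atp6v1e1 and Ctsc lower, where 5.58% of all genes rose and 7.34% fell. Of the 8, 7 are among the 22. Day 7 was also mostly 1 cluster, number 0, with 81.1% of the class in diabetic and 91.1% in control wounds. In that cluster alone 16 genes rose and 4 fell (11.9% and 14.5% of all genes), 19 of them among the 22. The one outside the 22 was Ctsc, which rose there at 0.18 ± 0.05 log2 a day (edgeR, adjusted p = 0.0118), while without the deep cells it fell, at -0.16 ± 0.05 (edgeR, adjusted p = 0.0346). On day 7 cluster 0 carried macrophage RNA close to that of the class. The 5 genes had 8639 and 8960 CPM in it, against 8158 and 9336 in the class, in diabetic and control wounds. Other days differed more, with 4057 against 1801 in diabetic day 5 and 307 against 512 in control day 1. Without the control day 5 library 16 rose and 3 fell (20.1% and 17.7%), all among the 22, and with both day 7 libraries left out 1 rose and 0 fell (0.56% and 0.737%).

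The sum of the set in neutrophil-like cells was 10223, 16612, 15674 and 29216 CPM in diabetic and 10757, 13713, 28288 and 31162 in control wounds. Without the deep cells it was 9913, 13408, 13236 and 13909 against 10052, 11701, 15774 and 16510, and the day 5 ratio was 0.839 in place of 0.554. With a macrophage-like share estimated from the 5 genes taken away, it was 9833, 11568, 12719 and 16330 against 9805, 10314, 16629 and 18034, with a day 5 ratio of 0.765. That share was 50.2% and 52.8% of the UMIs of the class on day 7 and 8.82% and 33.2% on day 5, in diabetic and control wounds. Day 1 was the lowest day of each group in these 3 sums. With both steps together it was not: the sum was 9644, 10366, 12147 and 8248 against 9507, 9740 and 10215 on the first 3 days and 7378 on day 7, so that day 7 was the lowest in each group and the day 5 ratio was 1.19. The rise of the sum to day 7 and the direction of the day 5 difference thus depended on how the macrophage transcripts and the deep cells were treated.

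**Figure D5:**
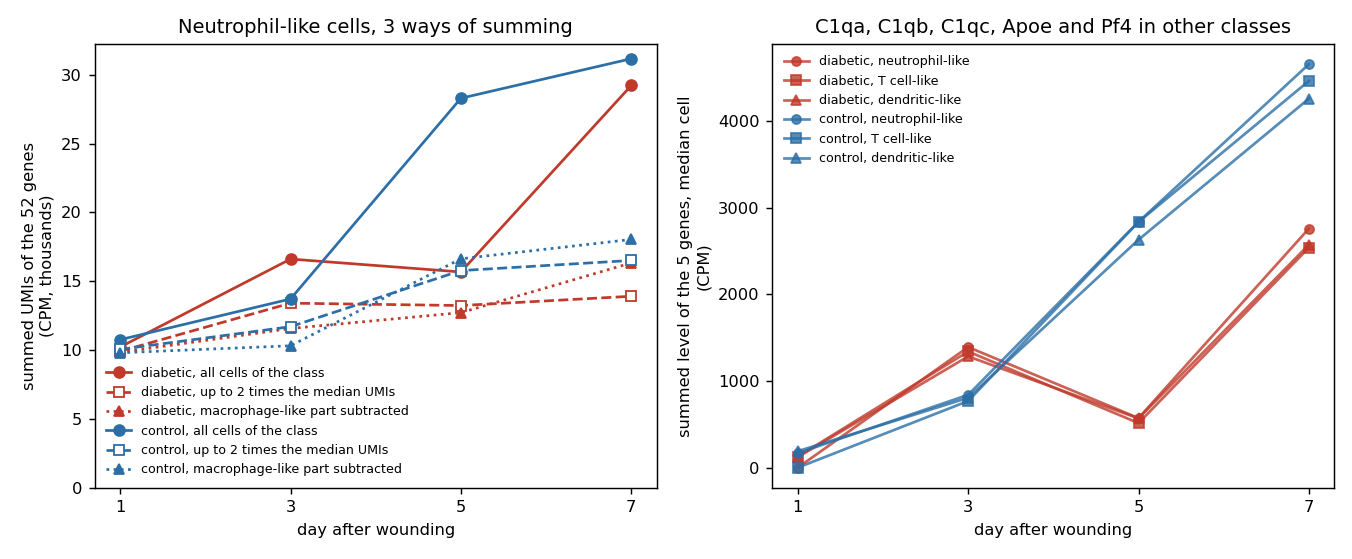
Left, summed level of the 52 genes in neutrophil-like cells in CPM (axis in units of 1000) by day, for all cells of the class, for cells with up to 2 times the median UMIs and with an estimated macrophage-like part subtracted. Right, summed level of 5 macrophage genes in the median cell of 3 other classes, in CPM by day, where the classes of one library lie together, at 4261 to 4660 in control day 7.

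On day 5, 13 of 40 genes of the set were at least 2-fold lower in diabetic than in control neutrophil-like cells, where 21% of all genes were, and 0 were higher, where 4.47% were. The 13 were Ctsa, Ctsc, Ctsh, Ctsl, Ctss, Lgmn, Hexa, Gusb, Npc2, Psap, Grn, Asah1 and Man2b1. Lgmn had a ratio of 0.229 (95% interval 0.208 to 0.254) and Ctss of 0.247 (0.237 to 0.258), while Man2b1, lysosomal alpha-mannosidase, was nearest the limit at 0.454 (0.390 to 0.531). On days 1, 3 and 7 the counts were 0 of 40, 42 and 44 genes in both directions, where 0.343%, 2.06% and 1.82% of all genes were lower and 1.61%, 5.21% and 1.34% higher.

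The count on day 5 depended on the cells and the scaling. Without the deep cells 7 genes were lower (7.76% of all genes) and 1, Atp6v0c, higher (4.53%), and in cluster 0 alone 6 were lower (12.2%). With TMM scaling 4 were lower, Ctss, Lgmn, Gusb and Asah1 (6.35% of all genes), and 2 were higher, Atp6v0c and Atp6v1e1 (15.5%). Ctss, Lgmn and Asah1 were lower in each of the 4 counts, none of which took away the macrophage transcripts. On day 5 the 5 macrophage genes had 1801 CPM in diabetic and 7060 in control neutrophil-like cells. Without the deep cells they had 652 and 2847, and in cluster 0 alone 4057 and 7651. Their part in the values of Ctss, Lgmn and Asah1 was not tested. The control library held 262 neutrophil-like cells on that day and the diabetic library 1922.

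Genes outside the set that belong to the same pathway were counted from lists. Of 32 other lysosomal hydrolases and activators, 15 rose and 4 fell over days in neutrophil-like cells (edgeR, against the same 21.8% and 20.3% of all genes), and of 21 other lysosomal membrane proteins tested 6 rose and 5 fell. Of 24 genes of nutrient sensing and autophagy 2 rose and 6 fell. These counts rest on TMM, and the macrophage RNA given above rose in the same cells. Scaled by total UMIs, 47.9% of all genes rose and 4.88% fell. The part of the scaling and of that RNA in the counts of these lists was not tested. In the comparison of diabetic with control wounds, 0 of these 3 lists' genes were called in all cells, macrophage-like cells or neutrophil-like cells. Of the granule serine proteases, of which 2 were tested, 1 fell in neutrophil-like cells, Prtn3.

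The inhibitors of cathepsins were counted in the same way. Of 9 cystatins and stefins tested in neutrophil-like cells, 6 fell (BC100530, Gm5483, Stfa1, Stfa2, Stfa2l1 and Stfa3) and 1 rose, Cst3, the secreted cystatin C, where 20.3% of all genes fell and 21.8% rose. Stfa3 fell by 0.83 ± 0.06 log2 a day. The 6 are stefin A-like genes of similar sequence, between which reads may be split. In the comparison of the groups, 8 of 9 of these genes had a positive log2 difference in neutrophil-like cells, with a median of 1.35 against -0.01 for all genes, and Stfa3 was higher in diabetic cells at 1.86 ± 0.27 (SE; edgeR's quasi-likelihood test, Benjamini-Hochberg adjusted p = 0.0469), the other 8 not passing (0.00928% of all genes were called higher). Scaled by total UMIs the difference of Stfa3 was 1.89 ± 0.31 and was no longer called (edgeR, adjusted p = 0.128), nor was it without the control day 5 library (1.78 ± 0.26, adjusted p = 0.0546), where Stfa1 was called in its place at 1.35 ± 0.19 (edgeR, adjusted p = 0.0319). The groups also filled the class from different clusters. Cluster 5, whose leading genes include Gm5483, held 432 of 2694 diabetic against 80 of 1994 control neutrophil-like cells on day 3, and 535 of 1922 against 1 of 262 on day 5. Within cluster 0 the difference of Stfa3 was 0.80 ± 0.56 (edgeR, adjusted p = 0.72) and 0 of the 9 genes were called (0.0124% of all genes), with 8 of 9 still positive and a median of 0.99. The falls of the 6 stefins and the rise of Cst3 over days were called under all 3 of these settings. The inhibitors were not counted without the deep cells. The part of the macrophage RNA in the rise of Cst3 was not tested. In all cells 8 of 9 were positive with a median of 1.73, and 0 passed edgeR's adjusted threshold. In monocyte-like cells 7 of 9 were positive with a median of 1.57, and edgeR called Stfa2 higher in diabetic cells (0.00958% of all genes). Stfa2 was also called lower over days in that class (0.261% of all genes). In macrophage-like cells 8 of 9 were positive with a median of 1.25, and in dendritic-like cells 6 of 8 with 1.17, and 0 were called in either. Neutrophil-like cells numbered 2448, 2694, 1922 and 766 in diabetic wounds on days 1, 3, 5 and 7. In control wounds they numbered 2649, 1994, 262 and 1066. The part of these numbers in the inhibitor values of all cells was not tested. Nor was that of free neutrophil RNA in monocyte-like, macrophage-like and dendritic-like cells, including the calls of Stfa2.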

How the data were processed

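Single cells positive for CD45 were measured in 8 libraries, 1 for each group and day. The deposited files hold whole UMI counts for each gene in each cell, not normalized, which the authors made with fastp (0.20.1 in the submitters' processing notes), UMI-tools and STAR. The study's methods name an Ensembl release of the mouse genome and the BD Rhapsody platform, while the record names mm9 and 10X Genomics. Depth was 19236522 to 33842509 UMIs a library, and intervals and ratios cover counting error only.

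The 52 genes and all lists were chosen with earlier results of these data known. Genes given by library are the 8 with the most UMIs and up to 5 called genes in each direction in each class with the largest change, and those past 2-fold on at least 2 days, of which there were 0. Ctsd was added for its lowest unadjusted p in macrophage-like cells, after its values were seen. Other lists were counted without a set test.

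Cells needed more than 200 detected genes and a mitochondrial share below 20%. Without the 52 genes, the 2000 most variable genes and 10 principal components were used to cluster cells (30 neighbours, leidenalg 0.10.2, igraph 0.11.9, resolution 0.8, scanpy 1.11.5, Python 3.11.15, numpy 2.4.6, scipy 1.17.1, pandas 2.3.3, scikit-learn 1.9.0). A cluster was named with at least 3 detected markers, and each marker list is described by the class named from it. In the dendritic-like cluster led by Cd209a, Langerhans genes had a mean log2 fold of 1.948 against 1.947 for dendritic genes. Fewer than 3 Langerhans genes were detected there, so the cluster took the dendritic name. B cell, keratinocyte, erythroid, basophil and plasmacytoid dendritic lists named 0 clusters. No doublet caller was run. Classes with fewer than 20 cells in a library were left out there.

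UMIs summed per library and class were tested with edgeR 4.0.16 in R 4.3.3 (quasi-likelihood, TMM, filterByExpr, Benjamini-Hochberg over all genes, 0.05), with day as a block or as a slope. This was tested on simulated data, but the outcome is not given here and no result above rests on it. DESeq2 1.42.0 was an alternative, and so were other filters, scalings and cell sets. No p-value was computed for a single day. Figures were drawn with matplotlib 3.10.9.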

Additional observations from a re-analysis of the deposited data

How the results depend on the processing

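Of 23 recounts in the 2 trends over days with genes of the set called, 15 stayed within 1.5 times the count reported (6 of 10 in all cells, 9 of 13 in neutrophil-like cells). Where 0 genes were called, a recount says little. Percentages in parentheses are shares of all genes called under the same setting. Of 72 recomputed ratios of the summed level 66 stayed on the same side of 1. The labels give no replicate numbers, and the comparison of the groups was paired by day through the block. Without the day term 0 genes of the set were called between the groups in each class (0% in each).

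In all cells the count over days was 3 and became 8 with DESeq2 (17.3%), 9 scaled by total UMIs (17.9%), and 0 to 3 with both libraries of a day left out (0 without day 1, 0%, or day 7, 0.00753%). In macrophage-like cells 0 became 1 with DESeq2 (1.3%), 2 without a filter on low counts (1.45%), 1 with cells named singly (0.862%) and 0 to 4 with a day left out (4 without day 7, 0.758%). In dendritic-like cells 0 became 4 with DESeq2 (1.51%), 4 without the filter (1.99%) and 0 to 1 with a day left out (1 without day 5, 0.698%), and between the groups 0 became 1 without the filter (0.748%). In neutrophil-like cells 22 became 7 with cells named singly (8.33%), 8 without cells over 2 times the class median of UMIs (12.9%), and 1 to 23 with a day left out (6 without day 1, 9.87%, 23 without day 5, 45.7%, and 1 without day 7, 1.3%), so that the share of all genes fell along with the count. On day 5 the 13 genes lower by 2-fold became 7 without those cells, 6 in cluster 0 alone and 4 with TMM, and the 0 higher became 1 and 2 without those cells and with TMM.

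Ratios are given for days 1, 3, 5 and 7 in order. In all cells they were 0.926, 1.12, 0.581 and 0.734 with TMM, 1.04, 1.03, 0.467 and 0.764 with cells weighted equally, and 1.06, 0.794 and 0.944 on the last 3 days with fixed class makeup. Without Ctsb, Ctss and Psap they were 0.963 on day 1, 0.557 on day 5 and 0.786 on day 7. In macrophage-like cells they were 0.961, 1.00, 0.774 and 0.929 with cells weighted equally, 1.01, 0.900 and 0.964 on the last 3 days without those 3 genes, 1.03 on day 3 and 0.989 on day 7 with TMM, and 1.02 and 0.994 on those days with cells named singly. In neutrophil-like cells they were 0.834, 1.17, 0.832 and 1.04 with TMM, 0.964, 1.13, 0.832 and 0.837 with cells named singly, 0.976, 1.16, 0.734 and 0.857 with cells weighted equally, and 0.986, 1.16, 0.656 and 0.910 without those 3 genes. They were 0.986, 1.15, 0.839 and 0.843 without the deepest cells, and 1.00, 1.12, 0.765 and 0.906 with the macrophage-like part subtracted, and 1.01, 1.06, 1.19 and 1.12 with both. The causes of these moves were not tested. Leaving out cells, fixing the makeup, subtracting and scaling by total UMIs were chosen after the data were seen. Depth limits genes under 100 UMIs and day 1 macrophage-like cells.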
